A study of Homo sapiens with 4 samples.

Results

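The ETS family genes ETS1, ETS2, ELF3, EHF, ERG, ETV1, ETV4, ETV5, SPDEF and ELK3 were examined in PC3 and DU145 prostate cancer cells with and without knockdown of ESS2. They were chosen by name from the family, and all 13 probes of these 10 genes were taken from the arrays, among 25121 genes that had a symbol. ETV1 had 4 probes and the other 9 genes had 1 each. PC3 and DU145 are established human lines grown from metastases of prostate cancer. Each line was transduced with lentivirus carrying either an shRNA against luciferase (PC3-shC and DU145-shC) or an shRNA against ESS2 (PC3-shESS2 and DU145-shESS2), and the controls thus carried a vector too. ESS2 is a nuclear protein found with the spliceosome, and the comparison asked how gene expression in these lines depended on it. Each of the 4 groups was 1 total RNA sample on 1 one-colour Agilent array, so no comparison within a line had a replicate and none has a p-value. According to the methods, the PC3 lines were puromycin-selected stable lines made by plasmid transfection, which differs from the labels. Neither source gives the number of shRNA sequences or clones behind each array.

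ETS factors share a winged helix-turn-helix domain that binds DNA around a GGAA core, and members differ in the flanking bases, in the cells that make them and in the signals that reach them. In prostate epithelium ELF3, EHF and SPDEF belong to the normal epithelial programme, whereas ERG, ETV1, ETV4 and ETV5 are known as the genes that chromosome rearrangements place under prostate promoters such as that of TMPRSS2. Several members, among them ETS1, ETS2, the PEA3 group (ETV1, ETV4, ETV5) and ELK3, are targets of RAS-ERK signalling.

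Values below are the scanner software's background-subtracted, processed signals in arbitrary units, one probe at a time. Signals of different probes were set against each other only in the sums of markers, in choosing a gene's probe and in finding genes of like level. Each ratio is a difference of log2 signals after division by the 75th percentile of its array (263 in PC3-shC, 290 in PC3-shESS2, 212 in DU145-shC, 218 in DU145-shESS2). A probe that the software did not mark as well above background has only an upper bound, and a ratio against it is a lower bound. Errors given as ± on a ratio come from the software's error of the 2 spots and cover the measurement of those spots, not a second culture. Between spots of probes printed 10 times, the log2 ratio of 2 arrays had a median SD of 0.084 in PC3 and 0.0821 in DU145, and 0.234 and 0.246 for the 4 and 7 such probes with a signal under 100. A gene counted as called within a line when its ratio passed 2-fold.

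The ESS2 probe gave 133 in PC3-shC, 53.6 in PC3-shESS2, 85.7 in DU145-shC and 17.3 in DU145-shESS2, a log2 ratio of -1.45 in PC3 and -2.35 in DU145. The reference genes GAPDH and ACTB had ratios of 0.18 and 0.15 in PC3 and 0.04 and -0.04 in DU145. Between 50.8% and 52.6% of the spots were well above background on each array, and none was saturated. The epithelial markers EPCAM, KRT8, KRT18 and CDH1 were well above background on all 4 arrays. KLK3, a marker of luminal secretory cells, was on none of them. CTNNA1, the gene of alpha-catenin, was well above background on both DU145 arrays and on neither PC3 array. The PC3 arrays shared 1 slide scan and 1 probe annotation release and the DU145 arrays another, so that line and scan cannot be told apart.

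The promoters of 5 members are shown because ELF3, EHF and SPDEF were lower together in PC3-shESS2 while ETS2 and ELK3 were higher there. Of the 10 genes, 7 had an entry in the RefSeq promoter table (GRCh38.p14), and ETS1, ETV4 and ETV5 had none. The 250 bases before the most upstream start listed for each gene are given 5′ to 3′ on the gene's strand, with each GGAA core in capitals, which reads TTCC where it lies on the opposite strand. They are ELF3 (chr1:202010337-202010586, plus strand), EHF (chr11:34624007-34624256, plus strand), SPDEF (chr6:34556330-34556579, minus strand), ETS2 (chr21:38804933-38805182, plus strand) and ELK3 (chr12:96194125-96194374, plus strand).
ELF3: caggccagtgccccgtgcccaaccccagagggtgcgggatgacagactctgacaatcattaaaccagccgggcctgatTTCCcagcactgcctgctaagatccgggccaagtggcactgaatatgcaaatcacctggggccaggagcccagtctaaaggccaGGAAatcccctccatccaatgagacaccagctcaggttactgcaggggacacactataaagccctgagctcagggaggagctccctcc
EHF: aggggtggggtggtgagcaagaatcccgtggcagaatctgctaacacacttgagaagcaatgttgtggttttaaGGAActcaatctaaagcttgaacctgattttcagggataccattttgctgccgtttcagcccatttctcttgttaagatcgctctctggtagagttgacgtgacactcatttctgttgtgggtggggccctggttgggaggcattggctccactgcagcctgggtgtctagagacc
SPDEF: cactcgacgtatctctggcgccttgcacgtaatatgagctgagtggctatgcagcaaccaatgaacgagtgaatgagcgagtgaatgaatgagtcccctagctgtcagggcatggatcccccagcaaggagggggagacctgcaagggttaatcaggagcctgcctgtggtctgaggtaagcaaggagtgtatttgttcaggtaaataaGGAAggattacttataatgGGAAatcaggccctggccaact
ETS2: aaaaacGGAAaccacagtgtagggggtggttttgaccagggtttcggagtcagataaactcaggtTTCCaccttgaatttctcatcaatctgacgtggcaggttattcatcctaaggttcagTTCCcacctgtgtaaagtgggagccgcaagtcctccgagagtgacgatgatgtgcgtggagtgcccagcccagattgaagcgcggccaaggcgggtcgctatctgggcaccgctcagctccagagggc
ELK3: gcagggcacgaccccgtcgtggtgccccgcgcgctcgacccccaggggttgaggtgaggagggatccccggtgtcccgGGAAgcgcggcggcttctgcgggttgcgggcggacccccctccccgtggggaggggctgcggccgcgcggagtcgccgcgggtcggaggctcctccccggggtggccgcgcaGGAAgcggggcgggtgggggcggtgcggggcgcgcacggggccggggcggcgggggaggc

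ELF3, SPDEF and ELK3 held 2 GGAA cores each in this window, EHF held 1 and ETS2 held 3. Of all 35116 promoters in the table, 92.7% held at least 1 GGAA on either strand, with a median of 3 cores, so that holding it was common. The longer consensus CCGGAAGT, found in 3.42% of all promoters, was in none of the 7, and neither was the AP-1 motif TGANTCA, found in 6.57%. The share of G and C was 82.0% for ELK3 against 58.4% for ELF3, 54.4% for ETS2, 50.8% for SPDEF and 50% for EHF, beside a median of 58.0% over all promoters.

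In PC3 cells the members split after ESS2 knockdown: ETS1, ELK3 and ETS2 were higher and EHF, ELF3, ETV4, ETV5 and SPDEF were lower. There 9 members could be compared, of which 3 passed 2-fold. Of all 16764 genes compared, 7.75% passed it, 3.88% upward and 3.87% downward, against 2 members upward (ETS1, ELK3) and 1 downward (EHF). The median ratio over the 9 members was -0.61, beside -0.06 over all genes, with 5 of them below 0 and 4 above. With each array scaled to its median, 511 genes were higher and 803 lower past 2-fold in place of 650 and 649, the median of all genes was -0.16, and 2 members passed, since ELK3 came to lie just under the threshold. With the authors' scaled values the split went the other way, 792 higher and 535 lower, and the median of all genes was 0.0352.

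In DU145 cells no member passed 2-fold. Of the members, 8 could be compared, with a median ratio of -0.14 beside -0.02 over all 16842 genes, of which 4.83% passed 2-fold (2.36% upward, 2.47% downward). With normexp background correction 139 genes were higher and 77 lower in place of 397 and 416. ETV4, ETV1 and ETV5 were lower and ELF3 was higher, each by more than 1.5-fold, whereas SPDEF and ELK3 differed by less than the error of their spots.

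**Figure D1:**
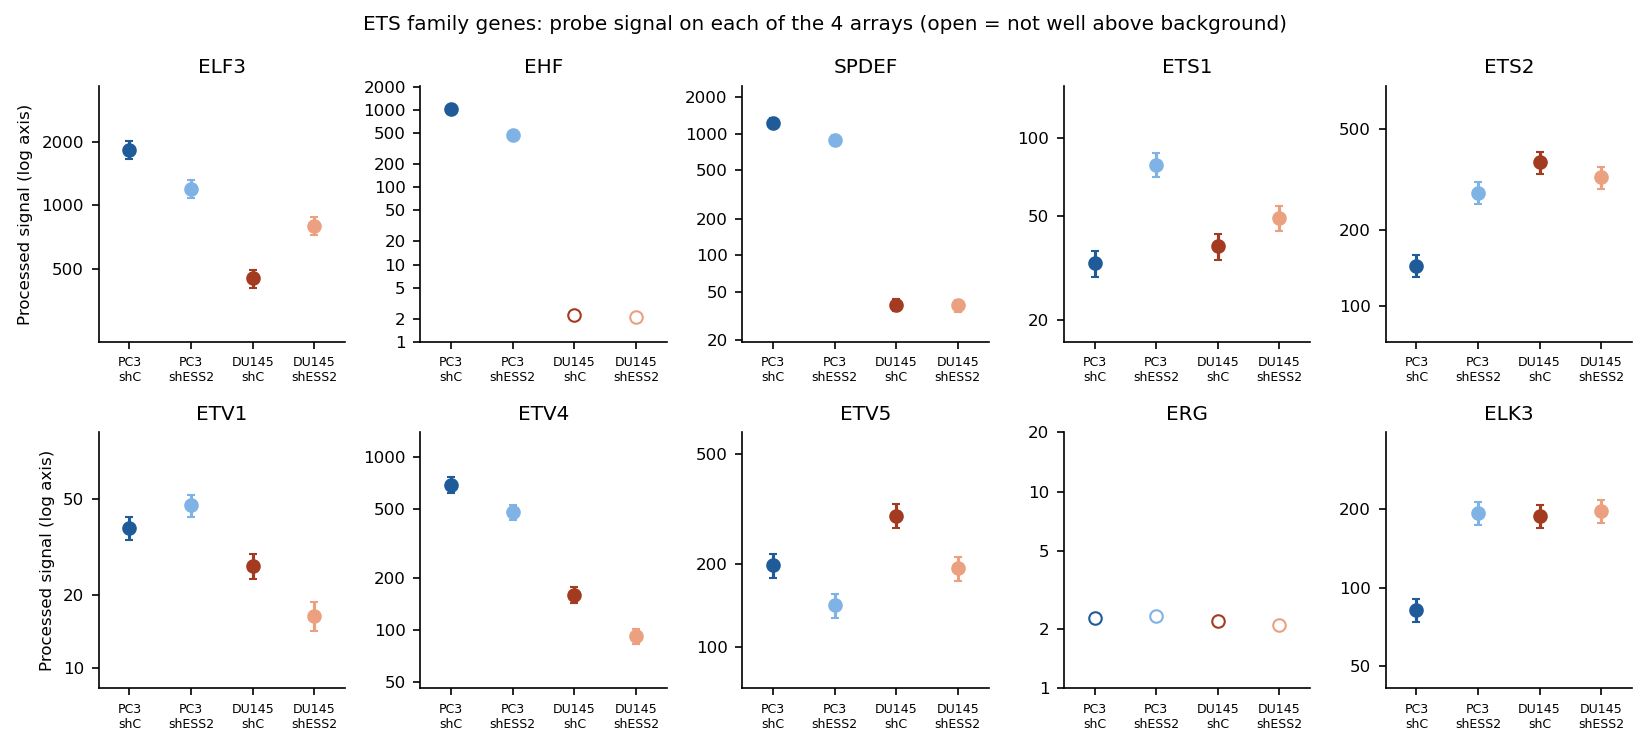
Processed signal of the probe used for each ETS family gene (y axis, log scale, arbitrary units, a separate range for each gene) on the PC3-shC, PC3-shESS2, DU145-shC and DU145-shESS2 arrays (x axis), with 1 point per array and the software's spot error as bars. Open points were not well above background, which were EHF on both DU145 arrays and ERG on all 4.

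ELF3, an epithelial ETS factor that is induced in inflammation, gave 1840 in PC3-shC, 1200 in PC3-shESS2, 451 in DU145-shC and 800 in DU145-shESS2. It was thus lower after knockdown in PC3 and higher after knockdown in DU145, and the 4 levels ran from PC3-shC down to DU145-shC with both knockdown arrays between them. The log2 ratio was -0.76 ± 0.20 in PC3 and 0.79 ± 0.20 in DU145, changes of 1.69-fold and 1.73-fold. ELF3 was the only member to move past 1.5-fold in opposite directions, a threshold chosen after the values were seen, and 1.24% of the 14686 genes well above background on all 4 arrays did so.

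EHF, its epithelium-restricted relative, gave 1020 in PC3-shC and 470 in PC3-shESS2, and 2.20 and 2.09 on the DU145 arrays, neither of them well above background. In PC3 it was the member with the largest decrease, with a log2 ratio of -1.26 ± 0.20 or 2.39-fold. The ratio stayed past 2-fold (-1.36 to -1.12) with median scaling, quantile normalization, the authors' scaled values and normexp background correction. The other alternative settings, on outlier spots, dim spots and averaging of probes, could not change it. Among the 1935 genes within 0.5 log2 units of its level, 4.65% passed 2-fold in either direction.

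SPDEF, a factor of luminal secretory cells first described as a regulator of the PSA promoter, gave 1240 in PC3-shC, 896 in PC3-shESS2, 38.9 in DU145-shC and 38.7 in DU145-shESS2. It was lower in PC3-shESS2 by 1.53-fold (log2 ratio -0.61 ± 0.20), and the DU145 arrays did not differ beyond the spot error (-0.05 ± 0.23). In PC3, then, all 3 factors of the epithelial programme had their higher level in PC3-shC. Decreases of the size seen for ELF3 and SPDEF were not rare, since 6.38% of all genes compared in PC3 were lower than ELF3 and 9.23% lower than SPDEF. Among genes within 0.5 log2 units of its level, SPDEF lay inside the 5% to 95% range (-0.74 to 0.64), and ELF3 lay just below its own 5% limit (-0.74). The 4 epithelial markers had scaled log2 ratios of -0.38 for EPCAM, 0.56 for KRT8, 0.12 for KRT18 and 0.21 for CDH1 in PC3, and their unscaled signals, most of them KRT18, summed to 118128 in PC3-shC and 134228 in PC3-shESS2. In DU145, where the sums were 24556 and 23438, EPCAM went from 2120 to 357 (-2.61) and the other 3 were between -0.03 and 0.28. The KRT8 value is that of 1 of 3 probes, which ran from 0.04 to 0.56 in PC3 and from -0.69 to 0.68 in DU145. Their part in the result was not tested.

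ETS1, the founding member of the family, gave 33.1 in PC3-shC, 79.0 in PC3-shESS2, 38.5 in DU145-shC and 49.4 in DU145-shESS2. The PC3-shESS2 array stood above the other 3, and the log2 ratio was 1.11 ± 0.23 in PC3 (2.16-fold) and 0.32 ± 0.22 in DU145. All 4 signals were under 100, where the printed replicates spread most, and 11.1% of the 1351 genes within 0.5 log2 units of its level in PC3 passed 2-fold. With normexp background correction the PC3 ratio was 0.61, under the threshold.

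ETS2, its closest relative, gave 144 in PC3-shC, 280 in PC3-shESS2, 369 in DU145-shC and 322 in DU145-shESS2. The PC3-shC array was lowest and knockdown brought PC3 nearer to DU145. The log2 ratio was 0.82 ± 0.21 in PC3 (1.76-fold) and -0.24 ± 0.20 in DU145.

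ELK3, a ternary complex factor that works with SRF and acts as a repressor in the absence of ERK signalling, gave 82.1 in PC3-shC, 194 in PC3-shESS2, 188 in DU145-shC and 197 in DU145-shESS2. PC3-shC stood below the other 3 arrays, also after scaling, where the log2 levels were -1.68, -0.58, -0.17 and -0.15 in the same order. The log2 ratio was 1.10 ± 0.21 in PC3 (2.14-fold) and 0.03 ± 0.21 in DU145. Its PC3 ratio was 0.76 with normexp background correction, and its partner SRF gave a log2 ratio of -0.54 in PC3 and 0.06 in DU145.

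ETV4, of the PEA3 group, gave 692 in PC3-shC, 479 in PC3-shESS2, 160 in DU145-shC and 92.2 in DU145-shESS2. In both lines the knockdown array was the lower of the pair, with log2 ratios of -0.67 ± 0.20 in PC3 (1.59-fold) and -0.84 ± 0.21 in DU145 (1.78-fold).

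ETV5 gave 198 in PC3-shC, 142 in PC3-shESS2, 300 in DU145-shC and 193 in DU145-shESS2. It was also the lower of each pair after knockdown, and the 2 ratios were close to each other, -0.62 ± 0.21 in PC3 (1.54-fold) and -0.68 ± 0.20 in DU145 (1.60-fold). ETV4 and ETV5 were the 2 of 8 members well above background on all 4 arrays that were lower by more than 1.5-fold in both lines, which 1.39% of 14686 genes did. That threshold was chosen after the values were seen. Both kept ratios under 0 in both lines with median scaling, quantile normalization, the authors' scaled values and normexp background correction. The other alternative settings could not change these ratios. The count past 1.5-fold was, however, 1 (ETV5) with quantile normalization and 0 with the authors' scaled values or normexp background correction.

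ETV1, the third of the PEA3 group, was represented by probe A_33_P3357954, which gave 38.0 in PC3-shC, 47.3 in PC3-shESS2, 26.5 in DU145-shC and 16.5 in DU145-shESS2. By this probe ETV1 differed little in PC3 (0.17 ± 0.22) and was lower after knockdown in DU145 (-0.72 ± 0.27), unlike ETV4 and ETV5, which were lower in both lines. The probes did not agree on DU145: A_33_P3357949 (122 and 152 in PC3), A_33_P3401156 (37.8 and 48.7) and A_32_P78491 (19.3 and 15.9) were well above background on both PC3 arrays and on neither DU145 array. Their PC3 log2 ratios were 0.18, 0.22 and -0.42, the last with a spot error of 0.34. The DU145 response of ETV1 therefore rests on 1 of 4 probes at low signal, and 15.1% of the 1425 genes near that level in DU145 passed 2-fold.

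**Figure D2:**
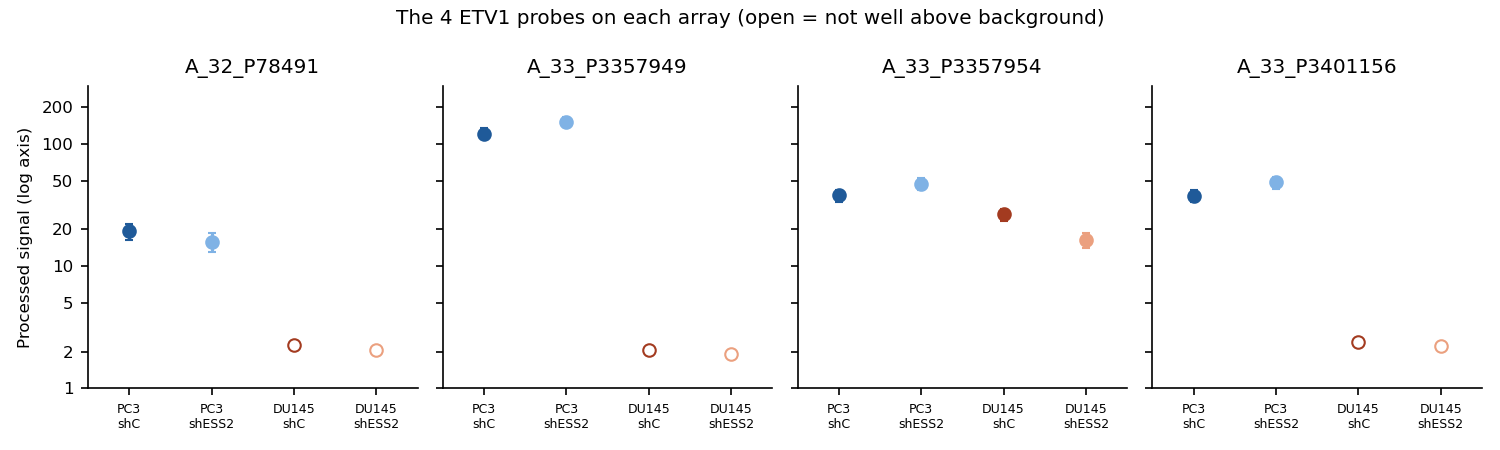
Processed signal (y axis, log scale, arbitrary units) of each of the 4 ETV1 probes on the 4 arrays (x axis), 1 panel per probe, with the software's spot error as bars. Filled points were well above background: only A_33_P3357954 was so on the DU145 arrays, at 26.5 and 16.5.

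ERG, an endothelial and blood-forming cell factor and the family member most often rearranged in prostate cancer, gave 2.29 in PC3-shC, 2.32 in PC3-shESS2, 2.21 in DU145-shC and 2.10 in DU145-shESS2. None of these was well above background, and no ratio was formed. The lowest signals well above background were 8.94, 9.02, 8.65 and 8.15 on these arrays.

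**Figure D3:**
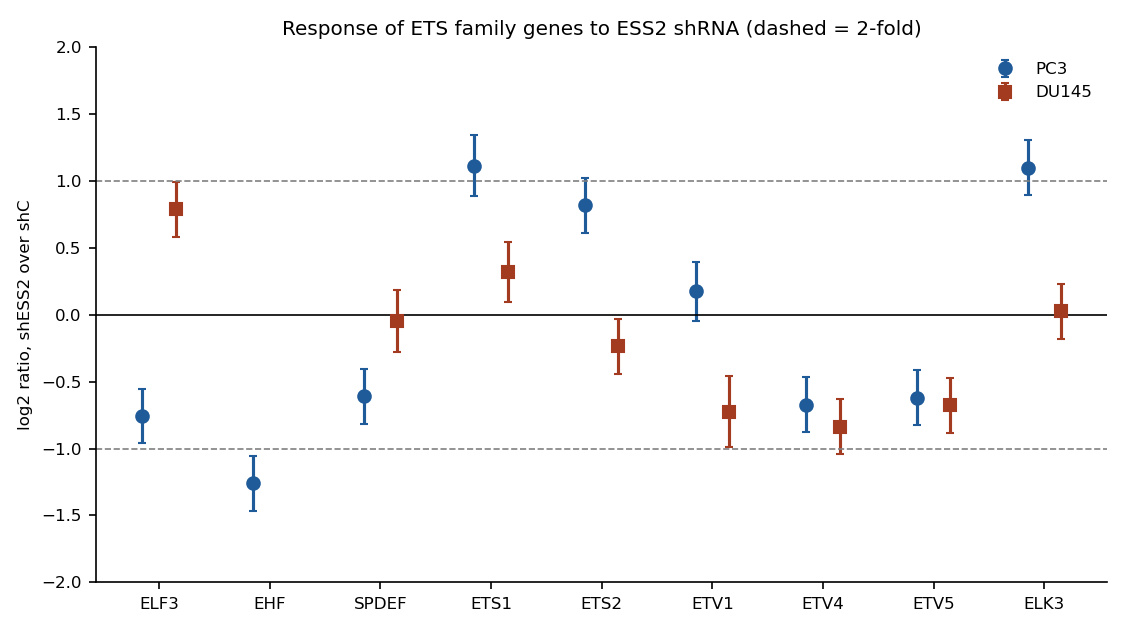
Log2 ratio of the shESS2 array over the shC array (y axis) for each measured ETS family gene (x axis) in PC3 (circles) and DU145 (squares), with the software's spot error as bars and dashed lines at 2-fold. ETS1 and ELK3 lie above and EHF below the dashed lines in PC3, no DU145 point does, and ETV4 and ETV5 lie below 0 in both lines.

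**Figure D4:**
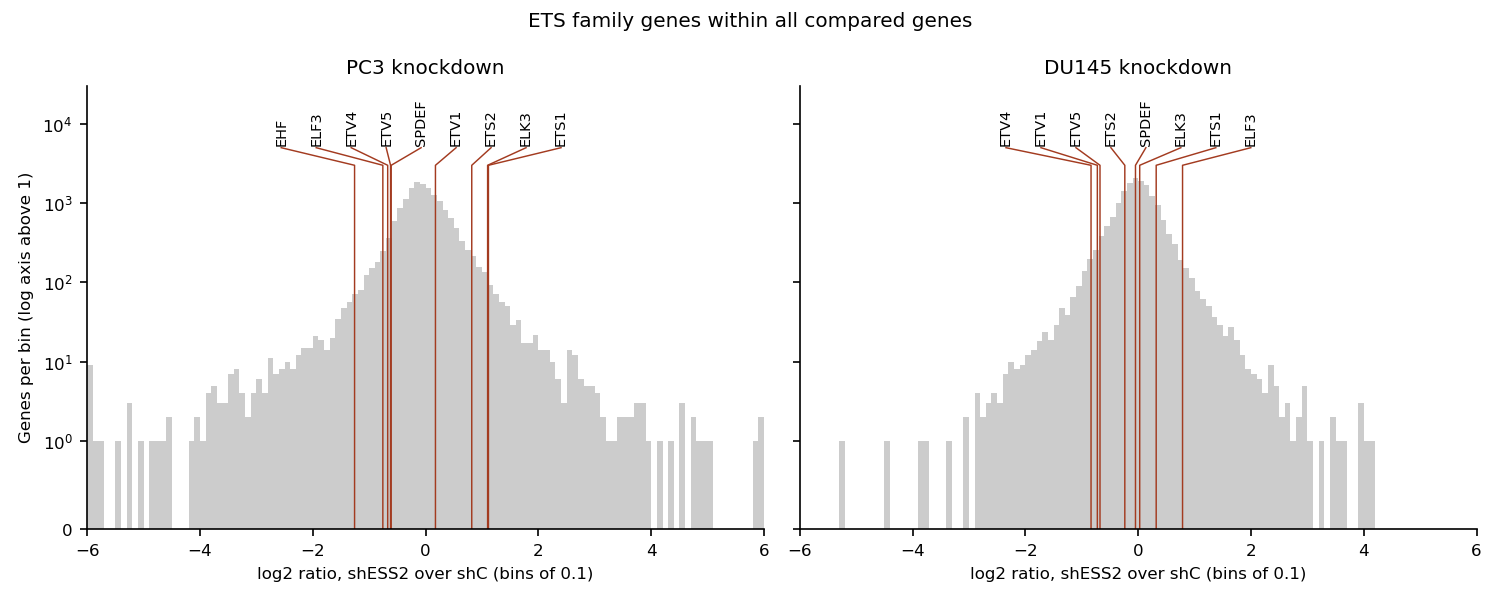
Number of genes (y axis, log scale above 1) by log2 ratio of shESS2 over shC (x axis, bins of 0.1, ratios beyond 6 in the outermost bins) among 16764 genes in PC3 and 16842 in DU145, with a line at each ETS family gene. The members lie between -1.26 and 1.11 in PC3, where 2.40% of genes were lower than EHF and 2.99% higher than ETS1, and between -0.84 and 0.79 in DU145, where 4.07% were lower than ETV4 and 4.07% higher than ELF3.

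To use both lines as the only available repeat of the knockdown, an additive model with line and shRNA as terms was fitted with limma to 17126 genes whose probe was well above background on 2 or more arrays, leaving 1 residual degree of freedom per gene. The knockdown term called 0 genes (0%) at a Benjamini-Hochberg adjusted p under 0.05 and therefore no member, with 1047 genes at an unadjusted p under that value. ETV4 (-0.75, SE 0.18, limma adjusted p = 0.746) and ETV5 (-0.65, SE 0.18, adjusted p = 0.746) had the smallest unadjusted p among the members in limma, 0.0156 and 0.0233. For ETS1 the term was 0.72 (SE 0.27, limma adjusted p = 0.746). ELF3, whose changes in the lines were opposite, had a term of 0.0145 with an SE of 0.43 in the limma fit, and its sign turned with median scaling (-0.0226) and normexp background correction (-0.00701).

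On the control arrays, 6 of the 9 members compared passed 2-fold between PC3 and DU145: EHF, SPDEF, ETV4 and ELF3 were higher in PC3 and ETS2 and ELK3 were higher in DU145. Of 17475 genes, 42.0% passed 2-fold (22.1% higher and 19.9% lower in PC3), so many genes shared such a difference. The median of all genes was 0.12, 0.58 with scaling to the median and -0.33 with the authors' scaled values, where 6132 against 2371 and 2399 against 5159 genes were higher and lower in place of 3863 and 3480. Taken relative to the median of all genes, the ratios were 4.56 for SPDEF, 1.68 for ETV4, 1.60 for ELF3, -1.79 for ETS2, -1.63 for ELK3, -1.03 for ETV5, -0.65 for ETS1 and 0.09 for ETV1.

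EHF was at least 95.1-fold higher in PC3-shC than in DU145-shC, a bound that takes the lowest signal well above background on the DU145 array and depends on the processing, since the log2 ratio of 6.57 was 6.12 with the authors' scaled values and 3.76 with normexp background correction. SPDEF was higher by 25.7-fold (log2 ratio 4.68 ± 0.22, and 3.44 with normexp). ETV4 was higher by 3.49-fold (1.80 ± 0.21) and ELF3 by 3.29-fold (1.72 ± 0.20). These were the 4 members past 2-fold higher in PC3, and 3 of them belong to the epithelial programme. CDH1 was also higher in PC3, with a log2 ratio of 5.28, as were EPCAM (3.55), KRT18 (1.54) and, by the probe used, KRT8 (1.29). The KRT8 probes ran from -0.60 to 1.56, so its direction depended on the probe.

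ETS2 was higher in DU145-shC, with a log2 ratio of PC3 over DU145 of -1.67 ± 0.21 (3.18-fold), and so was ELK3 (-1.51 ± 0.21, 2.84-fold). ETV5 (-0.91 ± 0.20) and ETS1 (-0.53 ± 0.23) were below 0 without passing 2-fold under the main scaling, although ETV5 passed it with the authors' scaled values (-1.36). For ETV1 the probe used gave 0.21 ± 0.23 and -0.24 with the authors' scaled values. The mean of its 4 probes gave 1.59, a lower bound because 3 of them were dim on the DU145 arrays. The other 3 ETV1 probes put the gene at least 11.4-fold, 3.52-fold and 1.80-fold higher in PC3.

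Across all 4 arrays, the line term of the same limma fit called 4 of the 8 members measured on every array (52.3% of 17126 genes were called): SPDEF (4.40, SE 0.23, adjusted p = 0.00199), ETV4 (1.88, SE 0.18, adjusted p = 0.00523), ETV5 (-0.88, SE 0.18, adjusted p = 0.0224) and ETS2 (-1.14, SE 0.32, adjusted p = 0.0496). EHF passed the filter on dim genes through PC3 alone, and with both DU145 spots set to the lowest signal well above background its term in the limma fit is not a measured difference and is not counted. ELK3 (adjusted p = 0.0740), ETV1 (0.131), ELF3 (0.141) and ETS1 (0.704) were not called by limma. The shC and shESS2 arrays of a line served as its repeats, so the residual of a gene was the difference between its knockdown responses in the lines. The SE and adjusted p therefore do not cover repeat cultures, and the line term cannot be told apart from scan and annotation release. The call of ETS2 was lost under median scaling, quantile normalization, the mean of all probes and no filter on dim genes, and that of ETV5 under median scaling and without the shRNA term. ETV1 was called under median scaling and ELK3 with the authors' scaled values. ETV1 also passed with normexp background correction, where the probe used was dim on both DU145 arrays, and with the mean of all probes, most of them dim there. As for EHF, these ETV1 terms are not measured differences.

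The gap between the lines changed with knockdown for some members, which restates the same 4 values from the other side. For ELF3 it went from 3.29-fold on the shC arrays to 1.13-fold on the shESS2 arrays, for ETS2 from 3.18-fold to 1.53-fold and for ELK3 from 2.84-fold to 1.35-fold. With quantile normalization or the authors' scaled values, ELF3 was lower in PC3 than in DU145 on the shESS2 arrays. ETS1 went from 1.44-fold lower in PC3 to 1.20-fold higher, but with the authors' scaled values it was lower in PC3 on both pairs of arrays. The gap of ETV4 was 3.49-fold and then 3.91-fold, that of ETV5 1.88-fold and then 1.81-fold, and SPDEF was still 17.4-fold higher in PC3. For ETV1, by the probe measured in both lines, it went from 1.16-fold to 2.15-fold higher in PC3. For EHF the shESS2 arrays gave a bound of at least 43.4-fold in favour of PC3. The difference between the lines in any response could not be tested with 1 array per group.

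**Figure D5:**
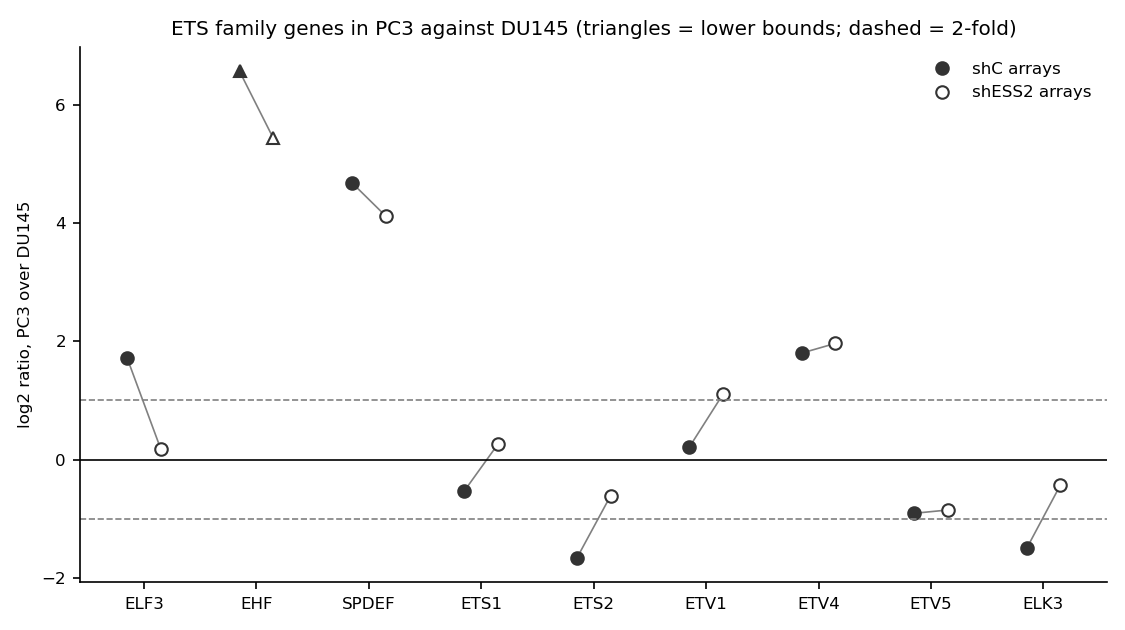
Log2 ratio of PC3 over DU145 (y axis) for each measured ETS family gene (x axis) on the shC arrays (filled) and the shESS2 arrays (open), with dashed lines at 2-fold and triangles for lower bounds. On the shESS2 arrays ELF3, ETS2, ELK3, SPDEF, ETV5 and the bound of EHF lie nearer 0, and ETV1 and ETV4 lie farther from 0. All of these stay on their side under the main scaling, and only ETS1 crosses 0 (-0.53 to 0.27).

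Of the 18 other ETS genes, 13 could be compared in each line, with a median ratio of 0.04 in PC3 and -0.02 in DU145. In PC3 none was higher past 2-fold and 2 were lower, and in DU145 1 was higher and none lower, beside 7.75% and 4.83% of all genes in either direction. ETV6, a repressor of the family, was the one measured on both arrays, with 304 in PC3-shC, 145 in PC3-shESS2, 199 in DU145-shC and 209 in DU145-shESS2. Its log2 ratio in PC3 was -1.21 by this probe and -0.26 by its other probe, so the probes differed in size. In DU145 it was 0.03.

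Of 11 partners and regulators, which include genes joined to ETS genes by rearrangement and the machinery that degrades or represses the PEA3 group, 1 was lower past 2-fold in PC3 and 1 was higher in DU145, a share near that of all genes (7.75% and 4.83%). The median ratio was -0.05 in each line. TMPRSS2, the protease gene whose promoter is the usual partner of ERG, gave 104 in PC3-shC, 43.0 in PC3-shESS2, 15.1 in DU145-shC and 6.79 in DU145-shESS2, the last not well above background. It was 2.67-fold lower in PC3 (log2 ratio -1.42) and at least 1.91-fold lower in DU145. SLC45A3, another such partner, had ratios of -0.71 and -0.67, within 2-fold. NDRG1, a stress-induced gene that has been found joined to ERG, was higher in DU145-shESS2 with a ratio of 1.40. COP1 and DET1, which mark the PEA3 factors for degradation, had ratios of -0.33 and -0.57 in PC3 and -0.09 and -0.08 in DU145. CIC, a repressor of the PEA3 genes, had ratios of 0.15 and -0.05.

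Of 30 genes known as ETS targets, 25 could be compared in each line. In PC3, 3 were higher and 5 lower past 2-fold, beside 7.75% of all genes, with a median ratio of -0.11 against -0.06 over all genes. In DU145, 1 was higher and 2 were lower, beside 4.83% of all genes, with a median of 0.18 against -0.02. The chemokine receptor gene CXCR4 rose from 20.4 to 333 in PC3 (log2 ratio 3.92), and MMP13, a collagenase, rose from 23.1 to 93.9 (1.88). SERPINB5, a serpin of epithelial cells, had a ratio of 1.22. MMP7, a matrix protease of epithelium, fell from 924 to 86.6 (-3.56) and PTGS2, the inducible cyclooxygenase, fell from 3150 to 733 (-2.24). DUSP6, an ERK phosphatase induced by ERK signalling, went from 8960 to 3770 in PC3 (-1.39) and from 2520 to 3800 in DU145 (0.55). In DU145, CLDN7, a tight junction gene, fell from 233 to 62.8 (-1.93) and MMP1, an interstitial collagenase, from 6735 to 2909 (-1.26). These targets thus moved in both directions, and which ETS factor, if any, acted on them was not measured.

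Markers of other cell types were read beside the ETS genes that such cells also make. All 3 endothelial markers were well above background in PC3, and their unscaled signals summed to 410 in PC3-shC and 100.1 in PC3-shESS2, against 60.2 and 70.7 in DU145. That difference was PECAM1, which went from 338 to 16.4 in PC3 (-4.51), while VWF and CDH5 had ratios of 0.18 and 0.03. Of the 4 fibroblast markers, LUM went from 9.90 to 48.8 in PC3 (2.16) and was on neither DU145 array well above background, COL1A1 had ratios of -0.57 in PC3 and -0.21 in DU145, and COL1A2 and DCN were well above background on no array. Fibroblast signals summed to 282 and 250 in PC3 and 90.9 and 81.6 in DU145, and of the 3 leukocyte markers with a probe only PTPRC was well above background on all 4 arrays. The part of these in the values of the ETS genes was not tested.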

How the data were processed

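Total RNA of 4 samples (0.1 µg each) was labelled with Cy3 and hybridised to 1 Agilent array per group. The authors deposited the scanner output of Agilent Feature Extraction (12.1.0.3 for PC3, 12.0.3.1 for DU145), whose processed signal is a background-subtracted intensity, and a value table with the same intensity multiplied by 1 constant per array. The tool named in the methods is GeneSpring, and the constant's origin is not given in the sources used here. Control spots and outlier spots, as the software flags them, were removed, repeated spots were averaged, and log2 intensities were scaled to the 75th percentile. Of 58201 probes, 35080 had an accession matched to a RefSeq symbol, and each gene was read from the probe with the highest average log2 signal, dim spots at their own value, which for ETV1 was not the probe with the highest average linear signal. Ratios required a probe well above background on at least 1 of both arrays, with dim spots raised to the lowest signal well above background. The fit used limma 3.58.1 in R 4.3.3, tested on simulated data. Members, gene lists and tests were chosen with earlier results of these data known. All members were named with every probe. Genes of the 3 lists of other ETS genes, partners and targets were named if past 2-fold and well above background on both arrays, at most 6 per list and comparison, and SLC45A3, COP1, DET1, CIC and SRF were added after their values were seen. Some marker genes are not reported here. The number of arrays limits the precision.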

Additional observations from a re-analysis of the deposited data

Results flagged for a closer look

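Several genes named above had log2 ratios of opposite sign after ESS2 knockdown in PC3 and DU145, with 1 array per group. Of 14686 genes well above background on all 4 arrays, 1.24% moved past 1.5-fold in opposite directions, and of the genes listed here only ELF3 did so. Those listed were picked for the size of the difference, and others such as SRF and CIC had opposite signs with smaller differences. The difference between the lines was not tested for any of these genes, and for ETV6 in DU145 and for ETV1 and MMP1 in PC3 the ratio was near 0. The log2 ratio in PC3 minus that in DU145 was -1.54 for ELF3 (-0.76 and 0.79), 1.06 for ETS2 (0.82 and -0.24) and 0.90 for ETV1 (0.17 and -0.72), the last by 1 of 4 probes. Among the other ETS genes it was -1.24 for ETV6 (-1.21 and 0.03). Among the target genes it was -1.94 for DUSP6 (-1.39 and 0.55), 1.38 for MMP1 (0.12 and -1.26), 1.49 for SERPINB5 (1.22 and -0.27) and -3.54 for PTGS2 (-2.24 and at least 1.30, since PTGS2 was not well above background in DU145-shC).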

How the results depend on the processing

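Within the lines there was no replicate, so ratios describe pairs of arrays, dim probes give bounds only, and line coincides with scan and annotation release. With normexp background correction, genes past 2-fold numbered 571 in PC3 and 216 in DU145, members past 2-fold in PC3 numbered 1, and the median over the members was -0.46 in PC3, 0.0199 in DU145 and 1.27 between the control lines. The PC3 median was -0.71 with scaling to the median, -0.51 with quantile normalization, -0.52 with the authors' scaled values and -0.37 with no filter on dim genes. The median between the control lines was 0.66, 0.61, -0.24 and -0.0272 under these 4 settings, -0.16 where both spots had to be well above background and 1.59 with the mean of all probes. The 1.27 and 1.59 were the values of ETV1, which are lower bounds there because of dim DU145 spots. The number of members lower past 1.5-fold in both lines, a count added after the data were seen, was 1 with quantile normalization and 0 with the authors' scaled values or normexp. In the limma fit, the knockdown term reversed for ELF3 (-0.0226 with scaling to the median, -0.00701 with normexp) and ETV1 (0.0605 with normexp), and the line term for ETS1 (0.26 with scaling to the median, 0.18 with quantile normalization). With normexp ETV1 was read from another probe, dim on both DU145 arrays, so its term is not the same measurement. The cause of these differences was not tested. Of 410 values of single members under an alternative, 330 moved by less than the spot spread or, in the limma fit, kept their direction and call, 65 ratios moved by more than the spot spread, 5 terms reversed, 6 calls were lost and 4 were gained. Of those gained, the calls of ETV1 with normexp and the mean of all probes rest on dim DU145 spots. Many of the 330 could not move, since for most members the settings on outlier spots, dim spots and averaging of probes returned the main ratio exactly. The count is thus no measure of stability. With median scaling and with the authors' scaled values, the ratio of every member compared moved in PC3 and between the control lines. No replicate could be left out within a group of 1 array.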
